A study of Mus musculus with 24 samples.

Results

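Gene expression was compared in the liver of suckling mice at postnatal day 7.5 (PD7.5) between grandoffspring of obese grandfathers, labelled SL, and grandoffspring of control grandfathers. The samples were chosen by their labels alone, and they make up 8 of the 24 arrays of the series, with 4 SL and 4 control livers, 1 array each. The other arrays hold embryos at embryonic days 7.5 and 14.5 (ED7.5, ED14.5) of the same lines. All mice were of the outbred ICR-CD1 strain, and neither group carried a named allele or received a named treatment itself. What SL stands for, how the grandfathers became obese, and whether the descent ran through sons or daughters is not stated in the labels. The labels also do not say whether the 4 livers of a group came from separate litters, so the p-values below measure only the spread between these samples, which may be smaller than that between families. On each array 19505 named genes were measured, and where a gene had several probe sets the brightest was taken. Values are on a log2 scale, so a difference of 1 is a doubling, and every difference is given as SL minus control. Values of different genes come from different probes and are not set against each other.

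The liver of a suckling mouse does several jobs at once. Hepatocytes burn the fat of milk and make glucose from other sources, secrete most plasma proteins, and build cholesterol through the mevalonate pathway, whose enzymes are switched on together by the transcription factor SREBP2 when sterols run low. Kupffer cells, the resident macrophages, line the sinusoids and clear particles and dying red cells, and many cells answer type I interferon by switching on a shared set of antiviral genes, with IRF9 among the factors that bind their promoters. Blood formation, which fills the fetal liver, is waning at this age, and islands of erythroid and granulocyte precursors remain beside the hepatocytes.

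Promoter letters are shown first for members of the 2 gene groups described at most length below, the cholesterol synthesis enzymes and the interferon response genes. RefSeq sequences of the mouse assembly GRCm38.p6, from 250 bases before to 50 bases after a gene's start, were at hand for 15691 of the 19505 genes. Both strands were searched. The CCAAT box (CCAAT, bound by NF-Y, which works beside SREBP2 on sterol genes) was held by 12 of the 13 cholesterol synthesis genes that had a window and by 38.8% of all windows. The sterol element core TCACCCCAC was held by 1 of the 13, Hmgcs1, and by 0.516% of all windows. The core of the interferon element (GAAANNGAA, which can overlap itself) was held by 12 of 22 interferon genes with a window, by 2 of 11 Kupffer cell marker genes and by 8.07% of all windows. Mvk is shown for its 5 CCAAT boxes (chr5:114444056-114444299, plus strand), Nsdhl for its 4 (chrX:72918372-72918570, plus strand) and Hmgcs1 for the sterol core (chr13:119690174-119690262, plus strand). Isg15 (chr4:156200836-156200936, minus strand), Ifit1 (chr19:34640740-34640853, plus strand) and Bst2 (chr8:71537548-71537642, minus strand) are shown for interferon cores that overlap. Each sequence runs 5′ to 3′ on the gene's own strand, and the capitals mark CCAAT or its complement ATTGG in Mvk and Nsdhl, the sterol core in Hmgcs1, and the interferon core or its complement in the other genes.
Mvk: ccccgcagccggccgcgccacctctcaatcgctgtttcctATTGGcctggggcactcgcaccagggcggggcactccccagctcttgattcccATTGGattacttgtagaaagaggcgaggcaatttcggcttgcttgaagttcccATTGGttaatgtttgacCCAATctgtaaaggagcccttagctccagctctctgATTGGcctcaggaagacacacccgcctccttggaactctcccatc
Nsdhl: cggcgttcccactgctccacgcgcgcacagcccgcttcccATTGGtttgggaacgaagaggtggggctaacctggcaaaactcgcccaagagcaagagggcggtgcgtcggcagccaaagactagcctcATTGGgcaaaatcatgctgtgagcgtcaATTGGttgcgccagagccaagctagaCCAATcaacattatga
Hmgcs1: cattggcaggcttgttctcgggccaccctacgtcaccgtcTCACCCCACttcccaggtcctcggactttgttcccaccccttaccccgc
Isg15: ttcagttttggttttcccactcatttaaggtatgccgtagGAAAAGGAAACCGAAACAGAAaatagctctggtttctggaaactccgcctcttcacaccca
Ifit1: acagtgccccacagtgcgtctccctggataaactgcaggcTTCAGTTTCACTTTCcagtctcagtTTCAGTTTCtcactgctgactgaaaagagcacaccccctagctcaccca
Bst2: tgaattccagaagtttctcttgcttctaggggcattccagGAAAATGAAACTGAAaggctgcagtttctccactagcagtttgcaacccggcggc
These matches describe the letters of the window. They are no measure of binding. The window of Irf7 held no match to the interferon core.

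The arrays were alike in overall quality apart from 1 measure. Between 52.2% and 58.4% of genes lay above the background of their array, taken as the 75% point of the 5222 probes against introns, and 9518 genes (48.8%) lay above background on all 8 arrays. Over all genes, the arrays correlated with a median r of 0.985 among control livers, 0.983 among SL livers and 0.983 between the groups. The separation of the exon from the intron control probes, where 1 is complete and 0.5 is none, ran from 0.906 to 0.920 in control and from 0.897 to 0.904 in SL, with means of 0.913 and 0.902 (exact two-sided permutation test, p = 0.0286, the smallest that 4 against 4 arrays can give). The groups did not overlap in this measure, and its part in the gene differences below was not tested. Hepatocyte markers matched the labelled tissue, since all 16 measured members of that list, albumin (Alb) among them, lay above background on all 8 arrays. The Y-linked genes Uty, Kdm5d and Eif2s3y also lay above background on all 8, and control replicate 3 was the lowest for each.

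No gene passed the threshold of 0.05 in the comparison of SL with control liver (limma, smallest adjusted p = 0.509 over 19505 genes, 0% called). At an unadjusted p below 0.05, limma counted 836 genes that were higher in SL (4.29%) and 707 that were lower (3.62%), or 7.91% together, against 975 expected in both directions if no gene differed. In 416 genes (2.13%) every SL array lay above every control array, and in 448 (2.30%) every SL array lay below, which is 4.43% together. The median difference over all genes was 0.003, 49.3% of genes were lower and 50.7% higher in SL, and the median standard error of a gene's difference was 0.19. A fit of all 24 arrays, which takes its spread from all 6 groups, called 5 genes at an adjusted p below 0.05: Slc22a28, Fbxo43, Eme1, Acaa1a and H2-M10.3. Of these Fbxo43 and H2-M10.3 lay below background on every liver array. The groups of genes described next are therefore read by their counts against these percentages, and none of the single differences passed the test.

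**Figure D1:**
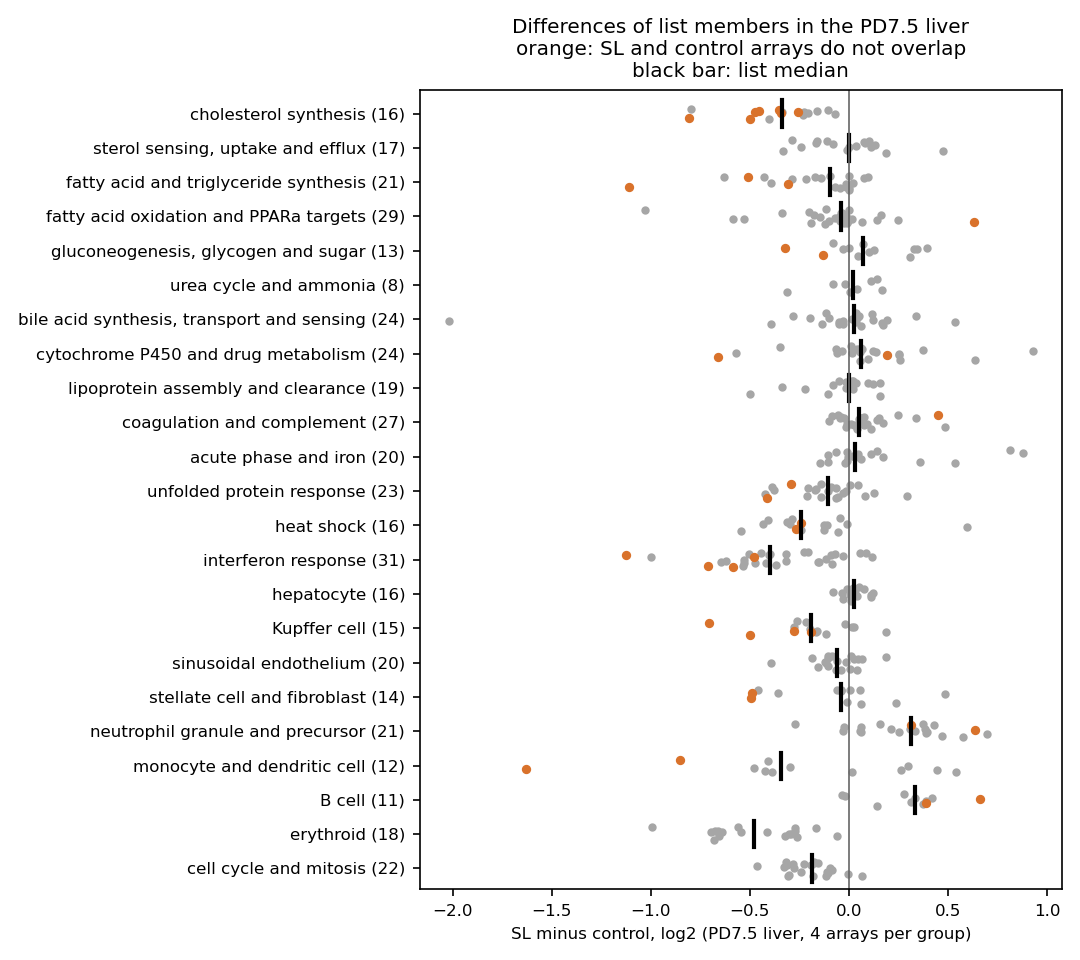
Difference between SL and control liver (log2, horizontal axis) for each measured member of 23 gene lists (rows, number of members in parentheses). Each point is a gene, orange where the 4 SL arrays do not overlap the 4 control arrays, and the black bar is the list's median. All 16 cholesterol synthesis genes and all 18 erythroid genes lie left of 0, while most neutrophil and B cell genes lie right of it.

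Genes of cholesterol synthesis were lower in the SL livers. All 16 measured enzymes of the pathway had a negative difference, with a median of -0.34, and 8 of them had an unadjusted p below 0.05, against 3.62% of all genes in that direction. In 7 of the 16 the groups did not overlap, against 2.30%. Averaged over the 16 genes, the array means ran from 9.52 to 9.76 in control and from 9.03 to 9.45 in SL.

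The early steps turn acetyl units into isoprenoids. Mvk, mevalonate kinase, read 7.70, 7.76, 7.46 and 7.67 in control and 7.12, 6.32, 7.22 and 6.71 in SL. Every SL liver was below every control liver, by 0.81 on average (SE 0.20, 1.75-fold, limma adjusted p = 0.509). Pmvk, which adds the next phosphate, read 8.77, 8.90, 8.77 and 8.59 in control and 8.50, 8.48, 8.30 and 8.39 in SL, a difference of -0.34 (SE 0.12). Fdps, which makes farnesyl diphosphate, read 8.08, 8.57, 8.02 and 8.25 in control and 7.93, 7.62, 7.82 and 7.64 in SL. Its difference was -0.48 (SE 0.16), and the groups of Pmvk and Fdps did not overlap either. The cytosolic synthase Hmgcs1, which starts the pathway and holds the sterol core shown above, differed by only -0.11 (SE 0.13), with overlapping groups. Mvd and Idi1 differed by -0.34 (SE 0.29) and -0.21 (SE 0.26). In Idi1 the SL livers split into a pair near the control range (9.95 and 10.03) and a pair below it (9.12 and 9.10).

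The later steps close the sterol ring and trim it to cholesterol. Dhcr7, the last reductase, read 8.99, 9.17, 9.29 and 9.13 in control and 8.81, 8.26, 8.89 and 8.62 in SL, so that the highest SL liver lay below the lowest control liver (difference -0.50, SE 0.16). Msmo1, a demethylating oxidase, read 8.89, 8.88, 8.77 and 8.94 in control and 8.75, 8.54, 8.33 and 8.04 in SL (difference -0.45, SE 0.16). Nsdhl, its partner in removing methyl groups, read 10.09, 10.19, 10.24 and 10.10 in control and 9.96, 9.81, 9.92 and 9.50 in SL (difference -0.35, SE 0.14). In these 3 enzymes SL replicate 4 or 2 was the lowest array. The isomerase Ebp also did not overlap (difference -0.26, SE 0.12). Sqle, the squalene epoxidase, differed by -0.80 (SE 0.22) and Lss, the ring-closing cyclase, by -0.41 (SE 0.17). In each, 1 SL array lay inside the control range. The smallest differences among these later steps were those of Cyp51 (-0.23), Hsd17b7 (-0.23), Sc5d (-0.16) and Fdft1 (-0.07). Without control replicate 2, the highest control array, the median was -0.26 and 5 members had an unadjusted p below 0.05, and without SL replicate 4 these were -0.25 and 5.

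**Figure D2:**
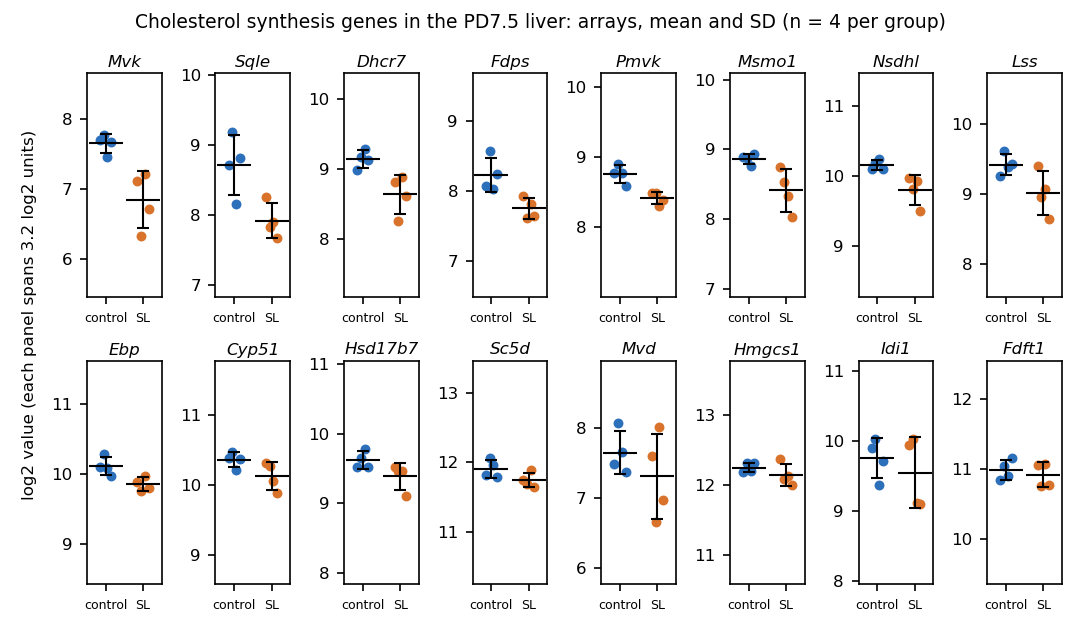
Log2 values of the 16 measured cholesterol synthesis genes on the control (blue) and SL (orange) liver arrays, with the mean and SD of 4 arrays, ordered by p-value. Each panel spans the same range of 3.2 log2 units, so the gaps can be compared between panels. The SL mean is lower in every panel, and Mvk shows the widest gap.

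Genes that sense and move sterols differed little as a group. Of 17 measured members 9 were lower and 8 higher, with a median of 0.00. Srebf2, which encodes SREBP2, read 10.31, 10.51, 10.70 and 10.59 in control and 10.29, 10.01, 10.44 and 10.20 in SL, a difference of -0.29 (SE 0.14) with overlapping groups. Abcg1, a sterol exporter, differed by -0.33 (SE 0.14). Genes of lipoprotein assembly and clearance were divided as well, with 9 of 19 higher and no member at an unadjusted p below 0.05.

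Fatty acid and triglyceride synthesis was lower in part. Of 21 measured genes 18 had a negative difference (13 after centring each array on its median), with a small median of -0.10. In this list 5 had an unadjusted p below 0.05, against 3.62% of all genes, and in 3 the groups did not overlap, against 2.30%. Gpam, which attaches the first fatty acid to glycerol phosphate, read 10.30, 10.42, 10.22 and 10.31 in control and 9.93, 9.96, 9.94 and 10.18 in SL. The groups did not overlap (difference -0.31, SE 0.12, 1.24-fold). Fasn, the fatty acid synthase, likewise did not overlap, with 8.97 to 9.28 in control and 8.34 to 8.85 in SL (difference -0.51, SE 0.15). Elovl6, an elongase, differed by -0.40 (SE 0.16) and Pklr, the liver pyruvate kinase, by -0.43 (SE 0.25). For Pklr most of this came from SL replicate 2, at 9.28 against 10.26 or more on every other array. Thrsp, a lipogenic regulator, was above background in 3 of 4 control livers and in no SL liver, and its control mean was at least 1.23-fold higher. The count of 5 was 2 without control replicate 2 or SL replicate 3, and 3 without control replicate 4 or SL replicate 2.

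The catabolic side of fat metabolism was close to the control. Of 29 measured genes of fatty acid oxidation and PPARα targets 23 had a negative difference, but the median was only -0.04. An unadjusted p below 0.05 was found in 1, against 7.91% of all genes in either direction. That gene was Cyp4a10, a fatty acid ω-hydroxylase and PPARα target, and it was higher. It read 9.24, 8.65, 9.26 and 8.99 in control and 9.69, 9.78, 9.53 and 9.66 in SL, with no overlap (difference 0.63, SE 0.16, 1.55-fold, limma adjusted p = 0.516). Acaa1a, a peroxisomal thiolase of the same branch that was not on the list, went the other way. It read 11.002, 10.62, 10.66 and 10.72 in control and 9.85, 9.74, 9.81 and 10.38 in SL (difference -0.80, SE 0.17). Every SL liver was again outside the control range, and Acaa1a was one of the 5 genes called in the fit of all 24 arrays (limma adjusted p = 0.0299 there). Cpt1a, the gate for fatty acids into mitochondria, differed by -0.04 (SE 0.15). Fgf21, a hormone that the suckling liver makes under PPARα, was above background in 3 control livers and in no SL liver, but control replicate 1 (4.64) lay below 3 of the SL arrays.

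Genes of glucose production were mixed. Over the whole list 8 of 13 genes were higher (median 0.07). In each direction 1 had an unadjusted p below 0.05, against 4.29% of all genes higher and 3.62% lower. The 2 genes whose groups did not overlap were both lower, against 2.30% of all genes. G6pc, which releases free glucose, read 11.16, 11.24, 11.44 and 11.78 in control and 11.78, 11.69, 11.89 and 11.82 in SL (difference 0.39, SE 0.16). Pck1, the entry enzyme of gluconeogenesis, differed by 0.34 (SE 0.21). In both genes control replicates 1 and 2 were the lowest arrays. In G6pc control replicate 3 also lay below every SL liver, and control replicate 4 lay among them. Pfkfb3, which drives glycolysis, was lower without overlap, with 7.29 to 7.62 in control and 6.996 to 7.23 in SL (difference -0.32, SE 0.13). Fbp1, a gluconeogenic phosphatase, did not overlap either, with 12.52 to 12.62 in control and 12.39 to 12.47 in SL (difference -0.13, SE 0.11). The urea cycle list had a median of 0.02 over 8 genes.

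Bile acid and drug metabolism genes differed little as groups. Of 24 bile acid genes 13 were higher and 11 lower (median 0.02). In each direction 1 had an unadjusted p below 0.05, close to the 4.29% of all genes higher and 3.62% lower. The higher one was Cyp7b1, an oxysterol hydroxylase, at 0.53 (SE 0.17), which lay below background on all 8 arrays. Cyp7a1, the rate-limiting enzyme of bile acid synthesis, differed by -0.28 (SE 0.16) and Cyp8b1, which makes cholic acid, by -0.39 (SE 0.16), in both with overlapping groups. Slco1a1, an uptake transporter for organic anions, had the widest difference of its list. It read 8.68, 7.81, 8.19 and 4.08 in control and 4.98, 6.17, 5.49 and 4.06 in SL. Control replicate 4 thus lay with the SL livers and below background, so the difference of -2.02 (SE 0.91) rests on 3 control arrays. Among 24 cytochrome P450 and drug metabolism genes 18 were higher, with a median of 0.06. Cyp2c50 was higher by 0.93 (SE 0.28) and Cyp2c37 by 0.37 (SE 0.16), whereas Cyp4f14, an ω-hydroxylase, was lower by 0.66 (SE 0.21). The Cyp2c genes are near copies of each other, so their probes may share signal. A further Cyp2c gene of the list was lower by 0.57 and another higher by 0.26, so the Cyp2c genes did not share a direction. Cyp3a11 did not overlap, with 12.67 to 12.85 in control and 12.89 to 12.999 in SL, a difference of 0.19 (SE 0.11).

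Secreted plasma proteins were level or slightly higher. Of 27 coagulation and complement genes 19 were higher, with a median of 0.05. C9, a pore-forming complement component, read 10.11, 10.17, 9.94 and 9.50 in control and 10.33, 10.44, 10.21 and 10.54 in SL, with no overlap (difference 0.45, SE 0.17). C1s1, a protease of the first complement complex, differed by 0.48 (SE 0.21), with control replicate 2 (10.72) lowest. Hamp, the iron hormone hepcidin, differed by 0.81 (SE 0.39), and the values spread widely in both groups. Orm1, an acute phase protein, was above background in SL replicates 2 and 3 only. The hepatocyte list as a whole differed by 0.02 (median of 16 genes), and its members ran from -0.08 (Hnf4a) to 0.12 (Apoa2).

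Most chaperone genes had lower values in SL. Of 16 heat shock genes 15 had a negative difference (median -0.24), but only Hsph1, a large HSP70 relative, had an unadjusted p below 0.05, against 3.62% of all genes, at a difference of -0.41 (SE 0.17). That count of 1 was 8 in the fit of all 24 arrays, 5 with a robust prior that follows intensity, and 3 among genes above background on at least 4 arrays or without control replicate 3. It was 2 with the replicate block, without the dimmest 33% of genes or without SL replicate 2, and 0 after quantile normalization, after median centring, or without SL replicate 1 or 3. Dnajb1, an HSP40 partner, read 8.57, 8.55, 8.61 and 8.77 in control and 8.20, 8.44, 8.43 and 8.36 in SL, and Hsp90aa1 11.33, 11.21, 11.05 and 11.06 against 10.95, 10.9999, 10.82 and 10.91. Neither overlapped, with differences of -0.27 (SE 0.12) and -0.24 (SE 0.12). Of 23 genes of the unfolded protein response 18 were lower (median -0.11), and 3 had an unadjusted p below 0.05, against the same 3.62%. Atf4, the factor of the integrated stress response, read 10.56, 10.56, 10.36 and 10.51 in control and 10.22, 10.08, 10.28 and 10.25 in SL, a difference of -0.29 (SE 0.12) without overlap. Creld2 differed by -0.39 (SE 0.15) and Asns, a target of ATF4, by -0.43 (SE 0.21). Hspa5, the central chaperone of the endoplasmic reticulum, differed by only -0.07 (SE 0.12). The count of 3 was 0 without control replicate 2, and 1 without control replicate 1 or SL replicate 2.

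Interferon response genes were lower in SL livers. Of 31 measured genes 28 had a negative difference, with a median of -0.40, and 10 had an unadjusted p below 0.05, against 3.62% of all genes. In 4 the groups did not overlap, against 2.30%. The array means of the list ran from 7.10 to 7.29 in control and from 6.69 to 6.91 in SL. Of the 31 genes 19 lay above background on all 8 arrays.

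Among the factors, Irf7, which amplifies the interferon loop, read 7.78, 7.82, 7.77 and 7.27 in control and 6.03, 6.77, 6.86 and 6.48 in SL. The difference was -1.12 (SE 0.21, 2.18-fold, limma adjusted p = 0.509). Irf9, the DNA-binding part of the interferon-activated complex, read 8.06, 8.05, 8.25 and 8.41 in control and 7.57, 7.49, 7.74 and 7.62 in SL. All 4 SL livers lay below the control range, at a difference of -0.58 (SE 0.13, 1.50-fold). Among the targets, Cmpk2, a mitochondrial nucleotide kinase, read 7.27, 7.08, 7.29 and 7.10 in control and 6.98, 6.05, 6.13 and 6.74 in SL. Rtp4, a receptor transporter induced by interferon, read 6.59, 6.71, 6.31 and 6.55 against 5.82, 6.26, 6.01 and 6.17. Neither overlapped, with differences of -0.71 (SE 0.21) and -0.48 (SE 0.15). Ifit1, which binds foreign RNA, was above background in 3 control livers and no SL liver (difference -1.00, SE 0.36, at least 1.44-fold), and Isg15, a ubiquitin-like modifier, in 3 and none as well (at least 1.11-fold). The family was not uniform, since Ifit3 differed by -0.03 (SE 0.22). Ifi207, an interferon-inducible gene outside the list, was lower by 0.56 (SE 0.12) with 7.98 to 8.34 in control and 7.55 to 7.64 in SL. Leaving out any 1 array left between 27 and 29 members lower and between 7 and 10 with an unadjusted p below 0.05.

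Kupffer cell markers were lower on the same arrays. Of 15 measured markers 12 had a negative difference (median -0.19), and 2 had an unadjusted p below 0.05, against 3.62% of all genes. In 4 the groups did not overlap, against 2.30%. The array means ran from 9.02 to 9.14 in control and from 8.82 to 8.98 in SL. In whole liver, fewer cells of a type and less RNA per cell cannot be told apart, and the part of Kupffer cells in the interferon difference was not tested. Folr2, a folate receptor of resident macrophages, read 7.51, 7.66, 7.37 and 7.44 in control and 6.55, 6.47, 6.93 and 7.22 in SL (difference -0.71, SE 0.18). C1qa and C1qb, which encode chains of complement C1q made by macrophages, did not overlap either, at -0.50 (SE 0.13) and -0.28 (SE 0.14). Clec4f, the marker most specific to Kupffer cells in mouse, read 9.96, 9.67, 9.63 and 9.71 in control and 9.61, 9.62, 9.61 and 9.36 in SL. Its groups touched without overlapping, and the difference was -0.19 (SE 0.13). Csf1r, the receptor that macrophages need to survive, differed by -0.20 (SE 0.12), Marco by -0.28 (SE 0.18) and Cd5l by -0.26 (SE 0.17). Adgre1, a surface receptor that marks mouse macrophages, differed by 0.18 (SE 0.18), the highest of the 3 markers with a positive difference, with SL replicate 4 highest at 9.50.

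Markers of other macrophages and monocytes gave a mixed picture. Of the 12 genes of the monocyte and dendritic cell list 7 were lower and 5 higher (median -0.34). An unadjusted p below 0.05 was found in 2 lower ones and no higher one, against 3.62% and 4.29% of all genes. Ccl24, a chemokine for eosinophils that macrophages make, was not on the list and was named for its small p. It read 7.29, 7.43, 7.30 and 7.12 in control and 6.67, 6.76, 6.43 and 6.30 in SL, with no overlap (difference -0.74, SE 0.14). Cx3cr1, the fractalkine receptor of monocytes and some macrophages, read 6.59, 6.84, 6.77 and 6.78 in control and 4.66, 6.06, 5.40 and 4.32 in SL. It was above background in all 4 control livers and in none of the SL livers, and its control mean was at least 1.65-fold higher. Xcr1, a chemokine receptor of cross-presenting dendritic cells, was the other lower gene (difference -0.85, SE 0.25, no overlap), but it lay below background on all 8 arrays. Ly6c2, a marker of inflammatory monocytes, differed by 0.54 (SE 0.24) with overlapping groups. Of the 12 genes 7 lay below background on all arrays, so the list says little about those cells.

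**Figure D3:**
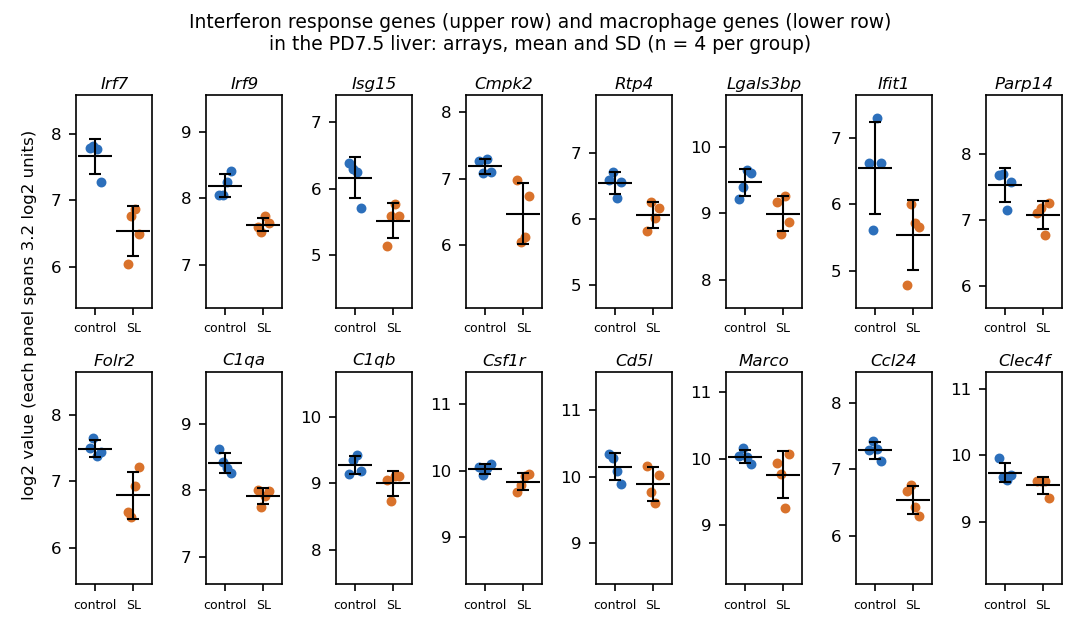
Log2 values of 8 interferon response genes (upper row) and 8 macrophage genes (lower row) on the control (blue) and SL (orange) liver arrays, with the mean and SD of 4 arrays. Each panel spans 3.2 log2 units. The interferon genes are those with the smallest p of 31. The macrophage genes are Ccl24, which is on no list, and Kupffer cell markers with a negative difference. The 3 of 15 Kupffer cell markers with a positive difference are not drawn. Irf7 and Ifit1 show the widest gaps above, and Ccl24 and Folr2 below, while Csf1r and Clec4f differ by less.

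Granulocyte and B cell genes were higher in SL. Of 21 measured genes of neutrophil granules and precursors 18 had a positive difference (median 0.31), and 4 had an unadjusted p below 0.05, against 4.29% of all genes in that direction. Camp, the cathelicidin of secondary granules, read 8.57, 8.34, 8.10 and 8.06 in control and 9.01, 8.82, 8.71 and 9.06 in SL. Every SL liver was above every control liver (difference 0.63, SE 0.16). Ltf, lactoferrin of the same granules, differed by 0.38 (SE 0.16) and Mpo, the peroxidase of early precursors, by 0.57 (SE 0.29). S100a8, an abundant cytosolic protein of neutrophils, read 10.21, 9.96, 9.55 and 8.73 in control and 10.002, 10.20, 9.78 and 10.19 in SL, so only control replicate 4 stood apart. That array had the lowest list mean, 7.18 against 7.60 to 7.95 on the others. Without it the median was 0.13, 15 members were higher and 2 had an unadjusted p below 0.05, and that count was also 2 without control replicate 3, SL replicate 2 or SL replicate 4.

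Of 11 measured B cell genes 9 were higher (median 0.33), and 2 had an unadjusted p below 0.05, against 4.29% of all genes. Ebf1, the factor that starts the B lineage, read 8.12, 8.12, 7.80 and 7.89 in control and 9.10, 8.47, 8.59 and 8.40 in SL (difference 0.66, SE 0.18). Pax5, which fixes that fate, read 6.21, 6.71, 6.50 and 6.69 in control and 7.11, 6.83, 6.94 and 6.80 in SL (difference 0.39, SE 0.15). Neither overlapped. Ebf1 is also expressed in stromal and fat cells. Cd79b, part of the antigen receptor, differed by 0.42 (SE 0.25) with overlap, and 4 of the 11 genes lay below background on all arrays. The count of 2 ranged from 1 to 4 when 1 array was left out. T and NK cell genes had a median of 0.02 over 13, of which 8 lay below background on all arrays.

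Erythroid and cell cycle genes followed single arrays. All 18 measured erythroid genes had a negative difference (median -0.48), yet none had an unadjusted p below 0.05 in limma. The list mean was 7.40 in SL replicate 4 and between 8.49 and 9.03 in the other SL livers, against 8.57 to 8.76 in 3 control livers and 9.44 in control replicate 2. Rhag, a red cell membrane protein, read 8.997, 10.04, 8.40 and 9.05 in control and 9.26, 9.06, 8.38 and 5.82 in SL. Slc4a1, the anion exchanger of red cells, read 10.77, 11.40, 10.87 and 11.01 in control and 11.27, 10.61, 10.80 and 9.13 in SL. In both, SL replicate 4 was far below and control replicate 2 above the rest. Klf1, the main erythroid factor, differed by -0.54 (SE 0.27). Without SL replicate 4 the list median was -0.12, and without control replicate 2 it was -0.32, with 16 members lower in each case.

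Of 22 cell cycle genes 21 were lower (median -0.19), none at an unadjusted p below 0.05. Mki67, a marker of dividing cells, read 11.26, 11.83, 11.18 and 11.34 in control and 11.71, 11.39, 11.11 and 10.49 in SL. The same 2 arrays, control replicate 2 and SL replicate 4, were its highest and lowest. Without SL replicate 4 the list median was -0.03 with 12 members lower, and without control replicate 2 it was -0.06 with 14 lower. Cdk1 differed by -0.46 (SE 0.25). Platelet genes were also lowest in SL replicate 4, with a list mean of 7.64 against 7.88 to 8.51 elsewhere, though 6 of the 9 were higher in SL overall. The part of erythroid RNA in the other differences on that array was not tested.

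**Figure D4:**
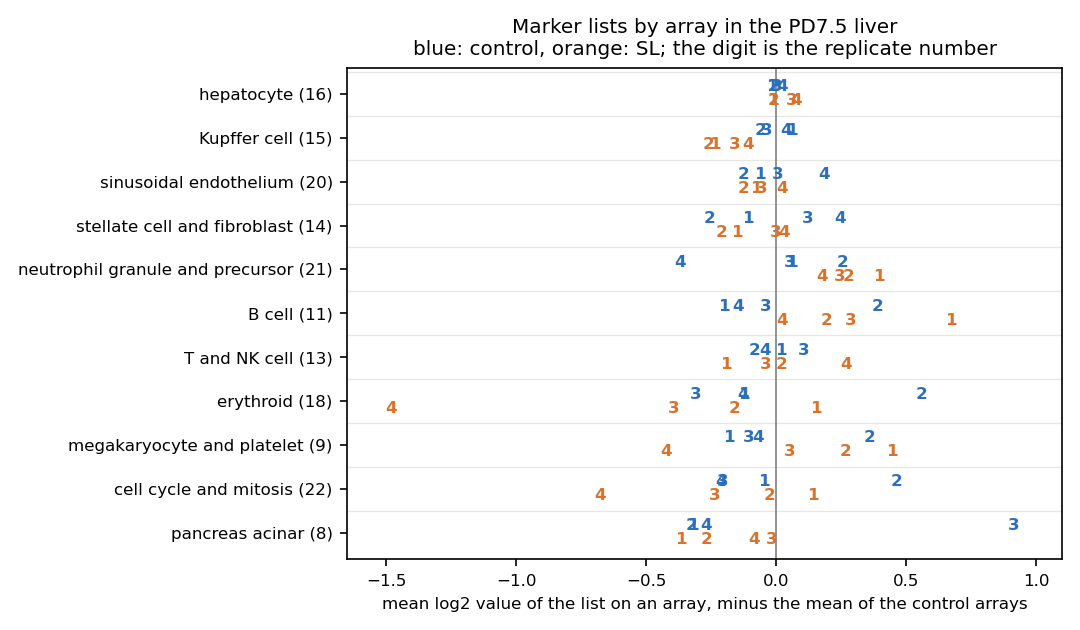
Mean log2 value of each marker list on each liver array, minus the mean of the control arrays (horizontal axis), with control replicates in blue and SL replicates in orange, each drawn as its replicate number. SL replicate 4 lies far left in the erythroid row, control replicate 3 far right in the pancreas row, and the Kupffer cell row is the only one of these in which all SL numbers lie left of all control numbers.

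Other liver cell types differed little. Of 20 markers of the sinusoidal endothelium 13 were lower with a median of -0.06, and none had an unadjusted p below 0.05. Stab2, a scavenger receptor of these cells, differed by 0.01 (SE 0.15). Stellate cell and fibroblast markers had a median of -0.04 over 14. Ngfr, a receptor of stellate cells, read 8.78, 8.71, 8.94 and 9.31 in control and 8.47, 8.24, 8.67 and 8.39 in SL, without overlap (difference -0.49, SE 0.17), and Des, desmin, differed by -0.49 (SE 0.14) near background. Cygb, cytoglobin of the same cells, was 0.48 (SE 0.22) higher, and the matrix gene Dcn differed by 0.06 (SE 0.12). The stellate markers thus did not share a direction. Markers of tissues that lie next to the liver were mostly near or below background. Control replicate 3 stood apart, with a mean of 8 pancreas acinar genes of 5.48 against 4.20 to 4.55 on the other 7 arrays. That mean was still below the array's background of 5.65. In that liver Ctrb1, a pancreatic protease precursor, read 6.76 against 2.98 to 3.88.

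Outside the lists, the genes with the smallest p among those above background in a whole group and without overlap were of varied function. Among those lower in SL, Bid, a trigger of mitochondrial cell death, read 7.19, 7.52, 7.29 and 7.21 in control and 6.27, 6.47, 6.34 and 6.72 in SL (difference -0.85, SE 0.14). Slc22a28, a member of the organic anion transporter family, read 7.38, 7.36, 6.70 and 6.50 in control and 5.02, 5.61, 4.52 and 5.81 in SL. It was above background in all control and no SL livers, and its control mean was at least 1.95-fold higher. Hspb8, a small heat shock protein that was not on the list above, read 8.07, 8.28, 8.45 and 8.14 in control and 6.94, 7.79, 7.40 and 7.32 in SL (difference -0.87, SE 0.19). Capn5, a calcium-dependent protease, differed by -0.65 (SE 0.13), Cptp, a ceramide phosphate carrier, by -0.76 (SE 0.17), Tbc1d7, a subunit of the TSC complex, by -0.83 (SE 0.16) and Cenpt, a kinetochore protein, by -0.65 (SE 0.14). These lower genes ranged from 1.56-fold (Capn5) to 1.83-fold (Hspb8), leaving aside Slc22a28.

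Among those higher in SL, Hk3, a hexokinase of myeloid cells, read 6.47, 6.46, 6.57 and 6.54 in control and 7.44, 7.12, 7.27 and 7.003 in SL (difference 0.70, SE 0.13, 1.63-fold). Pdk1, a kinase that shuts pyruvate out of the mitochondrial cycle, read 8.31, 7.98, 8.25 and 8.30 in control and 8.79, 8.90, 8.81 and 8.73 in SL (difference 0.60, SE 0.13). Clec2h read 8.55, 8.51, 8.02 and 8.29 in control and 9.58, 9.41, 9.52 and 8.73 in SL (difference 0.97, SE 0.21, 1.96-fold), the largest of the 12 named in this direction. Lilrb4a, an inhibitory receptor of myeloid cells, differed by 0.78 (SE 0.17), Ncam2, a cell adhesion molecule, by 0.69 (SE 0.14) and Plscr2, a scramblase relative, by 0.64 (SE 0.14). The rest, H2al2a, Lta, Defb35, Smim22, Otud1 and Aspg, were below background in 1 or more control livers and differed by 0.62 to 0.82. Lta, lymphotoxin, was above background in all SL and no control livers and at least 1.34-fold higher.

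The SL effect in liver was then set against that at ED14.5, measured in whole embryos on arrays that share no sample with the liver. In the fit of all 24 arrays 5 genes (0.0256%) differed in their SL effect between liver and ED14.5 past an adjusted p of 0.05, all with a lower effect in liver, and 2068 (10.6%) had an unadjusted p below 0.05. Standard errors given for the liver are those of the fit of the 8 liver arrays, and those for ED14.5 come from the fit of all 24. Cirbp, a cold-inducible RNA-binding protein, differed by 0.20 (SE 0.14) in liver and by 1.79 (SE 0.14) at ED14.5, a gap of -1.59 (limma adjusted p = 0.00115). Its liver values ran from 8.93 to 9.41 in control and from 9.26 to 9.41 in SL. Dnajb2, an HSP40 cochaperone, differed by -0.45 (SE 0.15) in liver and 0.70 (SE 0.12) at ED14.5 (limma adjusted p = 0.0139). Ddit4, a stress-induced brake on mTOR, differed by -0.87 (SE 0.25) and 0.87 (SE 0.22), and it read 7.23, 7.26, 7.49 and 7.02 in control livers and 5.92, 6.06, 7.14 and 6.40 in SL livers (limma adjusted p = 0.0472). Only SL replicate 3 reached the control range. Ampd2, an AMP deaminase, differed by -0.24 (SE 0.13) and 0.50 (SE 0.09), and Slc22a28 by -1.74 (SE 0.31) and 0.47 (SE 0.26), with adjusted p of 0.0454 and 0.0288 in limma. Cirbp was the 1 gene called in a fit of the 16 arrays of ED14.5 and liver alone. With each of these 16 arrays left out in turn, Cirbp was called in 16 fits, Dnajb2 in 14 (not without ED14.5 SL replicate 3 or liver control replicate 2), Slc22a28 in 9, Ampd2 in 6 and Ddit4 in 4. Ddit4 was also not called with array weights. The tissue differs between these ages as well, so age and tissue cannot be told apart. At ED14.5 the 3 measured Y-linked genes were all lower in SL (median -1.19, none at an unadjusted p below 0.05). In liver all 3 were higher (median 0.18). The labels do not give the sex of the samples, and its part in these contrasts was not tested.

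For the gene lists, cholesterol synthesis was lower at both ages, with 16 of 16 genes lower in liver and 14 of 16 at ED14.5 (median -0.20), where 4 had an unadjusted p below 0.05 against 4.52% of all genes (4.71% were higher at that level). The unfolded protein response was also mostly lower at both, with 18 and 21 of 23. So were heat shock genes, with 15 of 16 at each age, and Kupffer cell markers, with 12 of 15 at each. B cell genes were mostly higher at both, with 9 of 11 in liver and 8 at ED14.5. Interferon response genes did not share a direction between the ages. At ED14.5 19 of the 31 were higher, with a median of 0.08, and 10 of the 31 had an unadjusted interaction p below 0.05 with a lower effect in liver, against 5.23% of all genes, none of them past the adjusted threshold. Irf7 differed by 0.36 (SE 0.25) at ED14.5 and Irf9 by 0.31 (SE 0.14). Fatty acid oxidation genes were higher at ED14.5 in 25 of 29 (median 0.15), and in 6 the liver effect was lower at an unadjusted p below 0.05. Cpt1a, at -0.04 in liver, differed by 0.64 (SE 0.12) at ED14.5. Oxidative phosphorylation genes were lower in 60 of 82 in liver (median -0.06) and higher in 63 at ED14.5 (median 0.07), and ribosomal protein genes lower in 48 of 60 and higher in 50 (median -0.06 in liver and 0.08 at ED14.5).

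**Figure D5:**
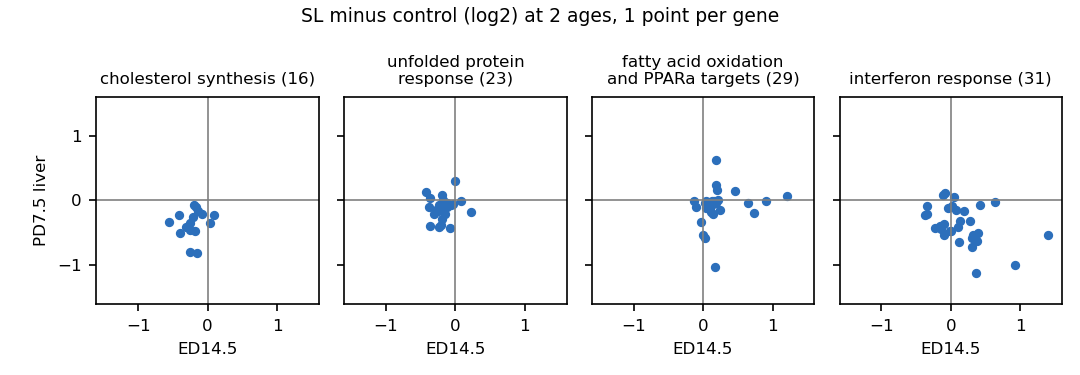
Difference between SL and control (log2) at ED14.5 in whole embryos (horizontal axis) and in PD7.5 liver (vertical axis), 1 point per gene, for 4 lists. Cholesterol synthesis points lie below 0 in liver and mostly left of 0 at ED14.5, whereas interferon response points lie below 0 in liver on both sides of 0 at ED14.5.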

How the data were processed

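RNA of 24 samples was measured on single-colour expression arrays, of which the 8 PD7.5 liver arrays are described. The deposited values are log2 probe set summaries made by the authors with RMA, which corrects background, equalizes the arrays by quantiles and summarizes the probes, in the oligo package, per the submitters' processing notes. The sources used here give no version or genome build, nor say whether the 24 arrays were processed jointly. RMA compresses small differences and equalizes the arrays' distributions. That the scale is log2 was taken from the method and the span of the values.

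Of 29129 probe sets 19572 named exactly 1 gene in the platform's annotation. The brightest was taken in 55 genes with several, which left 19505 genes. No column was unused. Groups were compared with limma 3.58.1 in R 4.3.3 (package data.table, version 1.17.8) over the 8 arrays, two-sided, with Benjamini-Hochberg adjustment over all genes. The SL effect in liver was compared with that at ED14.5 by an interaction term over 24 arrays. A fold marked "at least" sets the brighter group's mean against the background of the other. Figures were drawn with matplotlib 3.10.9. The code was tested on data with known answers. The number of arrays limits the precision.

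The samples, the 46 gene lists, the alternatives and the naming rule were chosen with earlier results of these data known, so no count is independent support for a list's direction. The rule took 12 genes per direction with the smallest p, without overlap and above background in a whole group, 3 members of each list (6 where at least 75% of at least 8 members shared a sign), all cholesterol synthesis genes, 19 measured anchor genes and up to 5 interaction genes per direction. Promoters were taken by a motif rule. The windows of Pmvk, Msmo1 and Trim30a also met it, with 1, 3 and 1 matches, and were not shown. Adgre1, Bst2, Eme1, Fbp1, Fbxo43, H2-M10.3, Ifit1, Ifit3 and Mpo were named outside it, after their values were seen. Replicate numbers recur in both groups. Same-numbered livers deviated from their group means with correlations of -0.016, 0.097, 0.116 and 0.066. For control replicates 2, 3 and 4 this was the highest correlation with any SL liver. The numbers were not taken as pairs in the main fit, and a replicate block was among the alternatives. Alternatives were an intensity trend with a robust prior, array weights, all 24 arrays, a replicate block, filters on dim genes, other normalizations, the mean of a gene's probe sets and leaving out each array. Some members of the lists are not reported here.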

Additional observations from a re-analysis of the deposited data

Results flagged for a closer look

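Arrays that stood apart in their group of 4 by Dixon's criterion, at the 95% level, were found in 10 of the 350 groups examined (2.86%), where chance gives about 1 in 20. SL replicate 4 was the array in 4 of these 10. It was low for Clec4f (9.36 against 9.61 to 9.62 in the other SL livers), Eme1 (4.99 against 5.90 to 6.00) and Hsd17b7 (9.10 against 9.46 to 9.52), and high for Gpam (10.18 against 9.93 to 9.96). Cyp4f14 had such an array in both groups, control replicate 1 at 7.76 against 8.28 to 8.35 and SL replicate 3 at 6.97 against 7.64 to 7.74. In SL replicate 2 Dnajb2 was low, at 7.88 against 8.14 to 8.18. In control replicate 4 Irf7 was low, at 7.27 against 7.77 to 7.82, which is the control array nearest to the SL livers.

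For list means, pancreas acinar genes averaged 5.48 in control replicate 3 against 4.24 to 4.30 in the other control livers. Genes that sense and move sterols averaged 9.89 in control replicate 2 against 9.95 in each of the others.

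The SL effect differed between liver and ED14.5 by a test of the difference itself in 5 genes (limma interaction term, adjusted p from 0.00115 to 0.0472). The gaps, liver minus ED14.5, were -1.59 for Cirbp, -1.14 for Dnajb2, -2.21 for Slc22a28, -0.74 for Ampd2 and -1.74 for Ddit4. In Slc22a28 the SL livers lay below background, so the size of its gap is uncertain. The embryo samples are whole animals and the liver samples 1 organ, so tissue and age cannot be told apart here. Sex is not given in the labels either.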

How the results depend on the processing

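With 4 arrays a group the precision is limited, and genes below background have only a bound. The number of liver genes past the adjusted threshold was 0 in all settings except the fit of all 24 arrays, where it was 5. The fit with the replicate number as a block called 0 genes (smallest adjusted p 0.544) and changed no call. The smallest limma adjusted p was 0.136 with a robust prior that follows intensity, 0.478 with array weights and 0.051 without SL replicate 2. Genes at an unadjusted p below 0.05 that were lower in SL numbered 1265 in the fit of all 24 arrays. Those higher in SL numbered 484 without the dimmest 33% of genes and 333 among the 10758 genes above background on at least 4 arrays, where fewer genes were tested. Non-overlapping genes that were higher numbered 266 and 203 under these filters. With 1 array left out, fewer arrays can overlap by construction, and such genes numbered 661 to 863 higher and 691 to 883 lower. The interaction count of 5 was 28 with that prior, 1 in the 16 arrays of ED14.5 and liver, and 1 to 16 with 1 array left out. The cause was not tested. Of the 129 genes named, 9 changed sign in at least 1 setting. Alb was at -0.0024 with array weights and -0.033 after quantile normalization, and Ifit3 at 0.0066 and 0.026. With 1 array left out Alb ran from -0.022 to 0.029, Cpt1a from -0.10 to 0.042, Dcn from -0.0046 to 0.11, Eif2s3y from -0.018 to 0.12, Hnf4a from -0.15 to 0.011, Ifit3 from -0.18 to 0.11, Igf1 from -0.044 to 0.091, Mki67 from -0.40 to 0.0029 and Stab2 from -0.078 to 0.10.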

Other observations

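Several gene groups of the neonatal liver that the text above leaves out stayed near the control. Genes of the growth hormone and IGF axis, which drives postnatal growth, were higher in 12 of 16, with a median of 0.04 and no member at an unadjusted p below 0.05 in limma. Igf1 read 12.77, 12.95, 13.17 and 13.09 in control and 13.02, 12.96, 13.10 and 13.02 in SL. Of 10 fetal hepatocyte genes 6 were higher (median 0.02). Afp, the fetal albumin relative, read 12.95, 13.07, 12.89 and 12.98 in control and 12.97, 12.95, 12.59 and 12.30 in SL, so SL replicates 3 and 4 were the low ones (difference -0.27, SE 0.17). Dlk1, an imprinted gene of fetal hepatoblasts, ranged from 7.11 to 8.97 in control and from 8.08 to 9.59 in SL. The imprinted list had a median of -0.07 over 16 genes. Periportal and pericentral genes, which mark the ends of the liver lobule, had medians of 0.02 over 6 and -0.05 over 10. Enzymes of DNA methylation and histone modification had a median of -0.02 over 19, none at an unadjusted p below 0.05.

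Redox and clock genes held single differences. In the NRF2 list Keap1, the NRF2 inhibitor, read 8.63, 8.71, 8.74 and 8.64 in control and 8.33, 8.27, 8.50 and 8.53 in SL, and Txnrd1, thioredoxin reductase, 10.34, 10.25, 10.24 and 10.22 against 9.87 to 10.11 in SL. Neither overlapped, with differences of -0.27 (SE 0.12) and -0.24 (SE 0.12). Hmox1, the heme oxygenase that macrophages and hepatocytes use to recycle heme, differed by -0.39 (SE 0.16), with 10.55 to 11.05 in control and 10.22 to 10.62 in SL. The list's median was 0.03 over 17 genes, so these were not shared by the list. In the clock list, with a median of 0.02 over 20, Nr1d1 was higher by 0.31 (SE 0.14) and Wee1 lower by 0.32 (SE 0.14). The labels do not give the time of day at which the livers were taken.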
